A study of Mus musculus with 9 samples.

Results

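Genes of the lipid droplet, the organelle that stores triglyceride, were followed in mouse brain RNA-seq of 3 groups with 3 libraries each. They are 2 lipases (Pnpla2 and Lipe), 2 regulators of the first of these (Abhd5 and G0s2), 4 perilipin coat proteins (Plin2, Plin3, Plin4 and Plin5) and 2 acyltransferases of triglyceride synthesis (Dgat1 and Dgat2). These 10 genes were chosen from a list of names, out of 18138 genes in the count table, and all 10 were among the 14756 genes that passed the filter on low counts. The list was drawn up after differences of Pnpla2 and Plin4 between MCAO and control and between hypidone and MCAO had been seen, so in those 2 comparisons the values of Pnpla2 and Plin4 are a description and carry no test. The control group is labelled only as control. The MCAO group had middle cerebral artery occlusion, a surgical model of ischaemic stroke that the series title describes as ischaemia with reperfusion. The last group had the same surgery and then hypidone hydrochloride (YL-0919), a drug given at 5 mg/kg without interruption for 7 days, and is called hypidone below. The sources used here do not give strain, age, sex, brain region or side, time after surgery, or whether controls had a sham operation or a vehicle. Nothing says that the libraries of a group came from separate mice, so the p-values measure the spread between these libraries, which may be technical.

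As background, Pnpla2 encodes adipose triglyceride lipase, which removes the first fatty acid from stored triglyceride, and Lipe encodes hormone-sensitive lipase, which acts mainly on the diglyceride that is left and on sterol esters. Abhd5 activates the Pnpla2 enzyme and G0s2 inhibits it, while perilipins coat the droplet surface and control access of the lipases. Droplets in the injured or ageing brain are found mostly in microglia and astrocytes, and neurons hold few of them.

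The sequences before the start sites of Pnpla2, Plin4 and Lipe are shown, the first 2 because their differences led to the list and Lipe because it is the other lipase. All are 250 bases, 5′ to 3′ on the strand of the gene, from RefSeq on GRCm38.p6, and end at the base before the annotated start. They lie at chr7:141454938-141455187 (plus strand) for Pnpla2, at chr17:56109783-56110032 (minus strand) for Plin4 and at chr7:25390113-25390362 (minus strand) for the more downstream of the 2 Lipe windows. Capitals mark a match to one of 4 motifs that were searched on both strands.
Pnpla2: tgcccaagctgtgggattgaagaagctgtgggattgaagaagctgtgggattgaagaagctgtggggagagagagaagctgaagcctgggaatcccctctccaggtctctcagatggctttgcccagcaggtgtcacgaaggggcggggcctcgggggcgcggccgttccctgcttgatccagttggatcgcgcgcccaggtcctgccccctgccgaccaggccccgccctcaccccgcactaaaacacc
Plin4: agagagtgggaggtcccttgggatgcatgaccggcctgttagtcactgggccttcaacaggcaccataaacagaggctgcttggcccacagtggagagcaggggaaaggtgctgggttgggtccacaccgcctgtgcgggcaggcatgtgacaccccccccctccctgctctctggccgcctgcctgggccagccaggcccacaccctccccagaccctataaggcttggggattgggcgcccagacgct
Lipe: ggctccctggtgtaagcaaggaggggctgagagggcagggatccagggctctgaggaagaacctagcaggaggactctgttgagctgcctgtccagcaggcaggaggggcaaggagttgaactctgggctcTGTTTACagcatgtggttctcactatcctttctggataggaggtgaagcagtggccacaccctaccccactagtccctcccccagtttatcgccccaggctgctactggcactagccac
The motifs were GTAAACA (FOXO factors), AGAACA (glucocorticoid receptor), AGGTCA (nuclear receptors) and CACGTG (E-box), and no window held more than 1 match. Of 32851 windows of the same length, 3.17% held GTAAACA, 16.08% AGAACA, 14.02% AGGTCA and 6.02% CACGTG. The Pnpla2 and Plin4 windows held none of the 4, which says only that these letters are not in these 250 bases. The Lipe window held GTAAACA on the opposite strand, 119 bases before the start. The other Lipe window held CACGTG 155 bases before its start. AGGTCA stood 218 bases before the start of Plin2, 69 before that of Abhd5 and 170 before that of Plin5. A promoter was matched for 8 of the 10 genes, in 10 windows, and Dgat1 and Dgat2 were not matched.

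On mm10 (GRCm38), with GENCODE M21 gene models, Pnpla2 lies at chr7:141455198-141460743 on the plus strand, Lipe at chr7:25379527-25398710 on the minus strand and Dgat2 at chr7:99153658-99182719 on the minus strand. Plin4 (chr17:56100591-56109803) and Plin5 (chr17:56111601-56117596) are neighbours on the minus strand of chromosome 17, separated by 1797 bp, and Plin3 (chr17:56277476-56292873) lies on the same strand. Abhd5 is at chr9:122351608-122381524 on the plus strand. On the minus strand G0s2 is at chr1:193272161-193273217, Plin2 at chr4:86648386-86670060 and Dgat1 at chr15:76502015-76511953. Values are per gene, so no isoform is resolved. Since no source used here states the strand setting of the counting, for 4 genes reads of an overlapping gene on the opposite strand cannot be told apart. These are Lipe with the antisense gene 4732471J01Rik, Abhd5 with A730085K08Rik, G0s2, whose 1057 bp lie wholly within the span of Lamb3, and Plin4, which shares 17 bp with Hdgfl2.

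The libraries held 32075682 to 37325027 counts, so depth differed little between them. Within MCAO the libraries were uneven, MCAO 5 standing apart by high microglia and macrophage markers and MCAO 4 by low reactive astrocyte markers. The 10 markers of activated microglia (Cd68, Trem2, Gpnmb, Spp1, Apoe, Itgax, Lpl, Lgals3, Ctsd and Cst7) summed to 21012 CPM in library 5 of MCAO, where CPM is the count scaled to library size. The sum was 7355 CPM for MCAO 6 and 3468 CPM for MCAO 4, while controls ranged from 1878 to 2356 CPM and hypidone libraries from 2110 to 2512 CPM. The 8 markers of monocytes and macrophages followed the same order, with 228 CPM for MCAO 5, 25.1 CPM for MCAO 6 and 7.45 CPM for MCAO 4. Their sum was 5.59 to 5.62 CPM among controls and 6.91 to 23.4 CPM among hypidone libraries. Among the activated microglia markers, Apoe alone was at 1348 to 1832 CPM in control and 2499 to 9449 CPM in MCAO. That sum thus mostly follows a few highly expressed genes. Of the 10, 8 were called higher in MCAO than in control and 0 lower. Lpl in MCAO 4 and MCAO 6, at 16.6 and 13.7 CPM, was below the controls, at 21.5 to 52.2 CPM. Library control 5 also stood apart, with 961 CPM summed over 8 hippocampal neuron markers against at most 221 in the other controls, and 203 CPM over 8 choroid plexus and ependyma markers and no more than 22.8 CPM elsewhere. The 8 reactive astrocyte markers were all called higher in MCAO than in control and lower in hypidone than in MCAO. They summed to 738, 4718 and 4548 CPM for MCAO 4, 5 and 6. Controls ranged from 184 to 791 CPM and hypidone libraries from 383 to 643 CPM. MCAO 4 was thus below control 5, which held the 791 CPM. Neuronal markers, checked because the tissue is labelled brain, were found in every library, but with lower sums in MCAO 5 and MCAO 6: the range was 5297 to 10007 CPM in MCAO, 8037 to 12078 CPM in control and 10434 to 11706 CPM in hypidone. Red cell markers summed to 41.9 to 72.7 CPM in control, less in MCAO at 4.31 to 28.0 CPM, and 71.3 to 187 CPM in hypidone. The part of these cell types in the differences between groups that are reported here was not tested. Of 8 adipocyte markers only 4 were in the table: Adipoq and Plin1 had at most 3 counts in any library, and the sum was 0.0879 to 9.95 CPM, the highest in MCAO 5 through Fabp4, which macrophages also make.

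In control brain, levels compared per length of transcript (FPKM, fragments per kilobase scaled to depth) placed Dgat2 first at 25.6 ± 10.7 and Pnpla2 next at 9.41 ± 0.465 (SD, n = 3). G0s2, Abhd5, Plin3 and Dgat1 followed at means of 5.995 ± 0.485, 5.59 ± 0.130, 5.51 ± 2.14 and 4.05 ± 0.920 FPKM, and each of these 4 overlapped the next. Plin2 stood at 2.57 ± 0.236 FPKM and Lipe at 1.61 ± 0.193 FPKM. Plin4 at 0.233 ± 0.094 FPKM and Plin5 at 0.150 ± 0.070 FPKM came last and overlapped each other, whereas every other neighbouring pair in this order outside the 4 was separated in all 3 libraries. In MCAO the order of means was different, with Pnpla2 first at 48.5 ± 5.48 FPKM, Plin2 next at 44.4 ± 63.1 FPKM, where the SD exceeds the mean, and then Dgat2 at 30.4 ± 7.84 FPKM.

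Between MCAO and control, 4 of the 10 genes (Pnpla2, Lipe, Plin2 and Plin4) passed as higher and 0 as lower in edgeR's quasi-likelihood test over all genes, with a threshold of 0.05 on the adjusted p. The count was 2 without control 4 or without control 6. Of all tested genes, 10.6% were called higher and 9.81% lower. The groups did not overlap for 5 of the 10, against 33.5% of all tested genes. The median log2 fold change of the 10 was 0.55, against 0.01 for all tested genes. As the list was drawn up around differences of Pnpla2 and Plin4 in this comparison, nothing is read from this count or these shares.

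**Figure D1:**
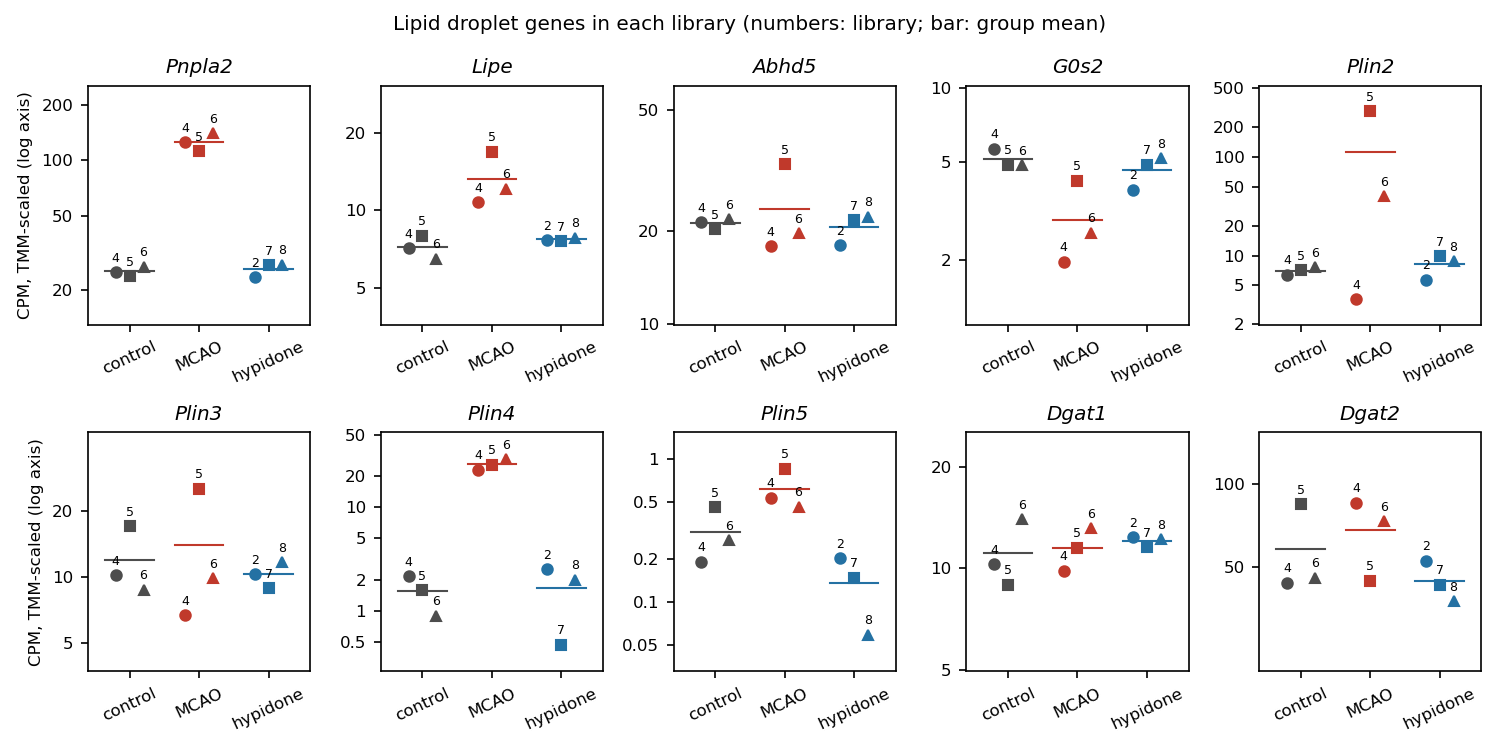
Level of each of the 10 genes in every library, as TMM-scaled CPM on a log axis, for control, MCAO and hypidone; numbers beside the points are library numbers and bars are group means (n = 3). Pnpla2 and Plin4 are high in all 3 MCAO libraries, while Plin2 runs from 3.58 CPM in MCAO 4 to 293 CPM in MCAO 5.

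Pnpla2, the main triglyceride lipase, was at 24.9, 23.7 and 26.7 CPM in control 4, 5 and 6, at 125, 112 and 140 CPM in MCAO 4, 5 and 6, and at 23.3, 27.1 and 27.3 CPM in hypidone 2, 7 and 8. Each MCAO library was thus far above every other library, and the control and hypidone libraries were interleaved. Group means were 25.1 ± 1.51 CPM in control, 126 ± 13.9 in MCAO and 25.9 ± 2.22 in hypidone (SD, n = 3). As descriptions, the fold of MCAO over control was 5.01 and hypidone stood at 0.206 of MCAO. Within MCAO, the library with the most microglia and macrophage marker RNA, MCAO 5, had the lowest Pnpla2 of the 3. Its reactive astrocyte sum, 4718 CPM, was close to the 4548 CPM of MCAO 6. The part of these cells in the Pnpla2 level was not tested. The authors' deposited table gives the same fold of 5.01 for Pnpla2 in MCAO over control, from the same libraries, so it is not independent.

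Lipe, hormone-sensitive lipase, was at 7.12, 7.98 and 6.49 CPM in control 4, 5 and 6, at 10.7, 16.9 and 12.2 CPM in MCAO 4, 5 and 6, and at 7.69, 7.61 and 7.85 CPM in hypidone 2, 7 and 8. All 3 MCAO libraries were above all others, MCAO 5 the most. Lipe rose in MCAO by 0.88 ± 0.20 on the log2 scale (SE; edgeR adjusted p = 0.0197), a fold of 1.84 with a 95% interval of 1.34 to 2.54. It was lower in hypidone than in MCAO by a log2 fold change of -0.78 ± 0.20 (edgeR adjusted p = 0.0327). The rise was no longer called without control 4 (edgeR adjusted p = 0.0653) or without control 6 (0.0779), with a range over all alternatives of 0.0006 to 0.110. The fall was no longer called without control 4, control 6, MCAO 6, or any 1 of hypidone 2, 7 and 8, with edgeR adjusted p of 0.0533 to 0.113. Lipe's order within MCAO (4, then 6, then 5) is also that of the activated microglia marker sums. The reactive astrocyte sums have the same order, but those of MCAO 6 and MCAO 5 were close, at 4548 and 4718 CPM. The part of these cells in the result was not tested. In a bulk tissue, fewer cells of a type and less RNA per cell cannot be told apart.

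The 2 lipases differed in degree, which is a description, since the differences of Pnpla2 led to the list. The FPKM of Pnpla2 divided by that of Lipe was 5.86, 4.96 and 6.88 in control 4, 5 and 6, 19.5, 11.1 and 19.3 in MCAO 4, 5 and 6, and 5.08, 5.95 and 5.82 in hypidone 2, 7 and 8. Every MCAO ratio was above every other, so more of the summed lipase message was Pnpla2 in MCAO.

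Abhd5, the co-activator of the Pnpla2 enzyme, was at 21.4, 20.4 and 21.9 CPM in control 4, 5 and 6, at 17.9, 33.2 and 19.8 CPM in MCAO 4, 5 and 6, and at 18.0, 21.7 and 22.3 CPM in hypidone 2, 7 and 8. MCAO 5 was high, and the other 2 MCAO libraries were below all controls. The log2 fold change in MCAO was 0.15 ± 0.23 (edgeR adjusted p = 0.655) and without MCAO 5 it was -0.16, so no direction is given. In hypidone against MCAO it was -0.19 ± 0.23 (edgeR adjusted p = 0.582).

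G0s2, the inhibitor of the Pnpla2 enzyme, was at 5.65, 4.86 and 4.84 CPM in control 4, 5 and 6, at 1.96, 4.19 and 2.58 CPM in MCAO 4, 5 and 6, and at 3.86, 4.87 and 5.18 CPM in hypidone 2, 7 and 8. The 3 MCAO libraries were all below the 3 controls, with MCAO 5 the nearest to them, and MCAO 5 overlapped hypidone 2. The log2 fold change of MCAO against control was -0.81 ± 0.31, at an edgeR adjusted p of 0.0923, which misses the threshold. Without MCAO 5 it was -1.15 and was called (edgeR adjusted p = 0.0150), and DESeq2 called it with all libraries (adjusted p = 0.0431), with a range over all alternatives of 0.0042 to 0.229. Against MCAO, hypidone had a log2 fold change of 0.67 ± 0.31 (edgeR adjusted p = 0.159), and 1.01 without MCAO 5 (edgeR adjusted p = 0.0253).

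Ratios of Pnpla2 to its 2 regulators are likewise a description, since Pnpla2 was chosen for these differences. The ratio of Pnpla2 to G0s2 in FPKM was 1.41, 1.56 and 1.76 in control 4, 5 and 6, 20.4, 8.55 and 17.3 in MCAO 4, 5 and 6, and 1.94, 1.78 and 1.68 in hypidone 2, 7 and 8. Pnpla2 to Abhd5 was 1.66 to 1.74 in control, 4.81 to 10.1 in MCAO and 1.74 to 1.85 in hypidone. Both ratios were lowest in MCAO 5 among the MCAO libraries and still above every control and hypidone library there. These ratios are of messages, and protein was not measured.

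Plin4, a perilipin known mainly from adipose tissue and muscle, was at 2.17, 1.57 and 0.901 CPM in control 4, 5 and 6, at 22.9, 25.8 and 29.2 CPM in MCAO 4, 5 and 6, and at 2.53, 0.472 and 1.99 CPM in hypidone 2, 7 and 8. Every MCAO library was above every other by a wide margin, and control and hypidone overlapped. Raw counts were 30 to 68 in control, 807 to 1065 in MCAO and 16 to 88 in hypidone. The fold of MCAO over control was 16.8, as a description. The MCAO mean was 26.0 ± 3.15 CPM (SD, n = 3). In the same 3 libraries the activated microglia markers summed to 3468 to 21012 CPM and the reactive astrocyte markers to 738 to 4718 CPM, and their part in the Plin4 level was not tested.

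Plin2, the perilipin found on droplets of most cell types, behaved differently. It was at 6.42, 7.06 and 7.66 CPM in control 4, 5 and 6, at 3.58, 293 and 39.8 CPM in MCAO 4, 5 and 6, and at 5.70, 9.89 and 8.79 CPM in hypidone 2, 7 and 8. Within MCAO the highest library was 81.8 times the lowest, MCAO 4 was below every control, and the groups overlapped. Plin2 was called higher in MCAO, by 3.99 ± 1.18 on the log2 scale (SE; edgeR adjusted p = 0.0434), with a 95% interval of 1.32 to 6.66. This call rests on MCAO 5: without it the log2 fold change was 1.64 (edgeR adjusted p = 0.139). It was also lost on leaving out any 1 of the 3 controls, MCAO 6, or any 1 of the 3 hypidone libraries (edgeR adjusted p = 0.0647 to 0.125), and was kept on leaving out MCAO 4, with a range over all alternatives of 0.0038 to 0.320. Hypidone against MCAO gave -3.79 ± 1.17 (edgeR adjusted p = 0.0559) and missed the threshold, while the authors' deposited table has Plin2 at a fold of 0.0730 with q = 0.0309. Without MCAO 4 it was called, at -4.35 (edgeR adjusted p = 0.00517). Plin2 was high in the 2 MCAO libraries with the most microglia, macrophage and reactive astrocyte marker RNA (MCAO 5 and MCAO 6), whose part in the result was not tested.

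**Figure D2:**
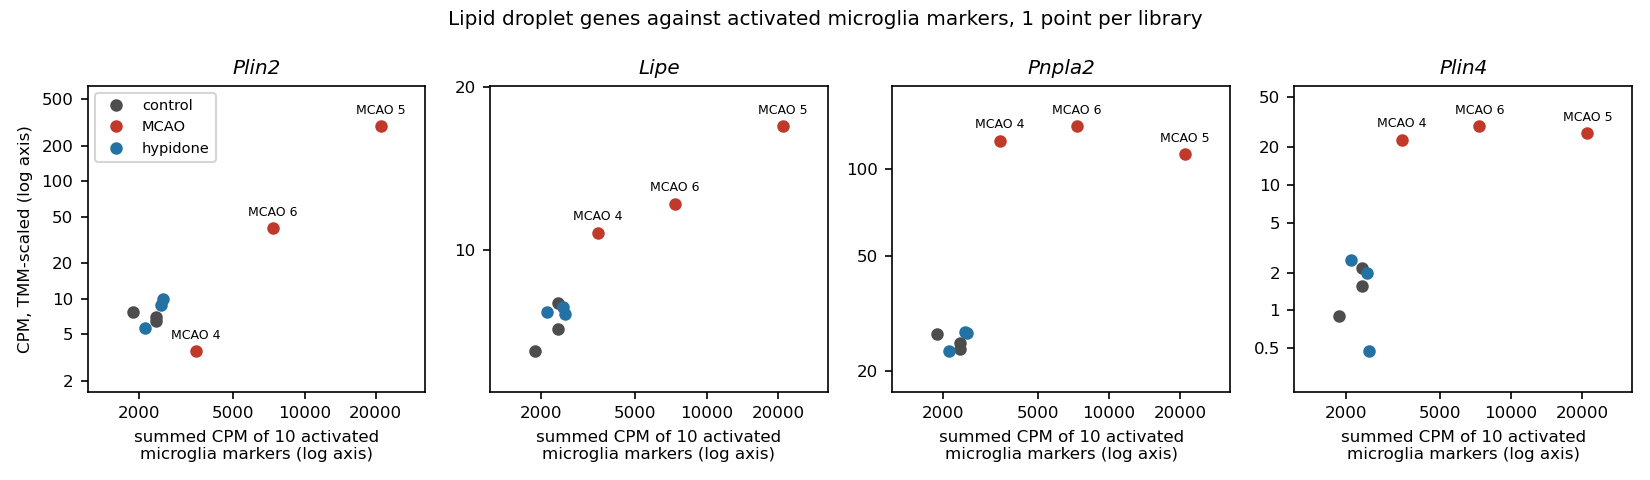
CPM of Plin2, Lipe, Pnpla2 and Plin4 (vertical, log axis) against the summed CPM of 10 activated microglia markers (horizontal, log axis), 1 point per library, MCAO libraries labelled. Plin2 and Lipe are highest in MCAO 5, at 21012 marker CPM, whereas Pnpla2 lies at 112 to 140 CPM and Plin4 at 22.9 to 29.2 CPM in all 3 MCAO libraries.

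Plin3, another widely expressed perilipin, was at 10.2, 17.1 and 8.74 CPM in control 4, 5 and 6, at 6.71, 25.2 and 9.86 CPM in MCAO 4, 5 and 6, and at 10.3, 8.91 and 11.7 CPM in hypidone 2, 7 and 8. The groups overlapped, and the 2 highest values were those of MCAO 5 and control 5, which both stood apart by their cell type markers. The log2 fold change was 0.22 ± 0.46 in MCAO against control (edgeR adjusted p = 0.759), turning to -0.52 without MCAO 5, and -0.44 ± 0.46 in hypidone against MCAO (0.526).

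Plin5, a perilipin of tissues that oxidise much fat, was near the limit of detection. Its raw counts were 6, 17 and 9 in control 4, 5 and 6, 19, 33 and 17 in MCAO 4, 5 and 6, and 7, 5 and 2 in hypidone 2, 7 and 8. In CPM the MCAO libraries, at 0.467 to 0.860, were just above the controls, at 0.192 to 0.462, and hypidone was at 0.059 to 0.202. Since Plin5 passed the filter on low counts through the MCAO libraries, where it is highest, some difference was bound to appear. MCAO against control gave a log2 fold change of 1.0 ± 0.57 (edgeR adjusted p = 0.237). Hypidone against MCAO gave -2.17 ± 0.61 and was called (edgeR adjusted p = 0.0432). That call was lost with no filter (edgeR adjusted p = 0.0601) and on leaving out any 1 of control 4, control 6, MCAO 5, MCAO 6, hypidone 2, hypidone 7 and hypidone 8 (0.0616 to 0.152).

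The make-up of the perilipin messages therefore differed among the MCAO libraries more than among the rest. Plin3 held most of the summed perilipin FPKM in every control and hypidone library, at 52.1% to 72.0%, with Plin2 second at 23.8% to 46.1%. In MCAO 4 the largest share was that of Plin4, 42.7%, at a sum of 7.72 FPKM, within the control range of 7.02 to 11.1 FPKM. Plin2 held 87.1% of 134 FPKM in MCAO 5 and 61.4% of 24.7 FPKM in MCAO 6, and Plin4 held 3.16% and 18.6% there. Plin4 held at most 5.24% in any library outside MCAO, and its share in MCAO 5, where Plin2 took up most of the sum, lies within that range.

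**Figure D3:**
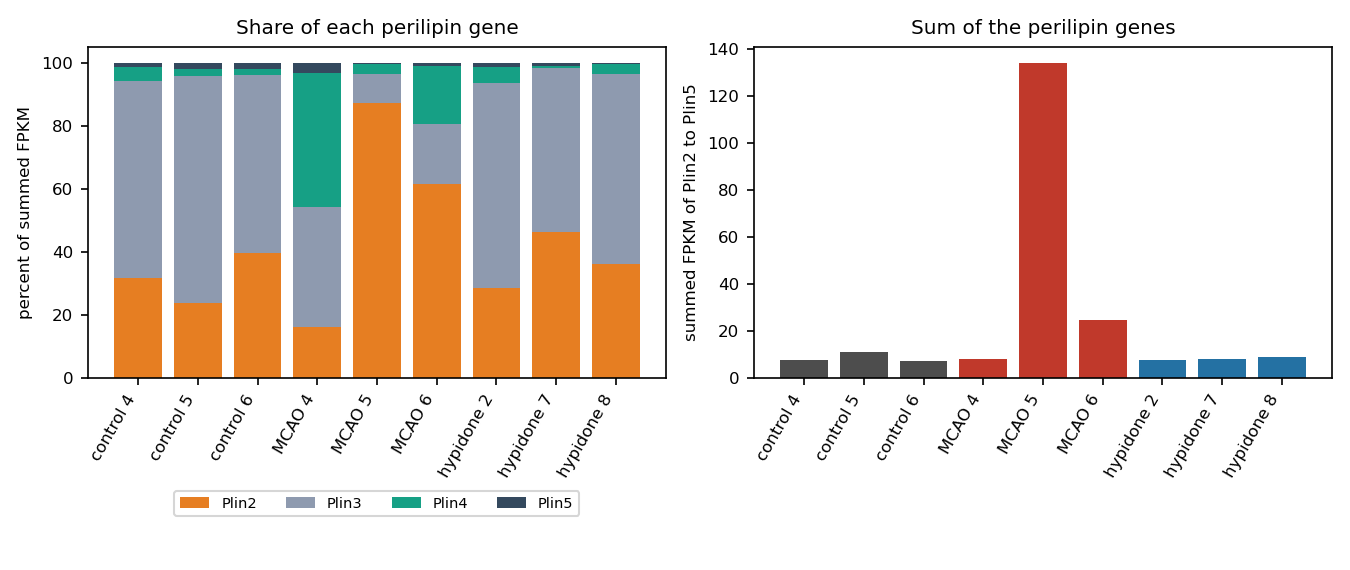
Left, percent of the summed FPKM of Plin2, Plin3, Plin4 and Plin5 that each gene holds in every library; right, that sum in FPKM. Plin3 leads outside MCAO, while Plin4 leads in MCAO 4 (42.7%) and Plin2 in MCAO 5 (87.1%) and MCAO 6 (61.4%).

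Dgat1 and Dgat2, which carry out the last step of triglyceride synthesis in parallel, were not called by edgeR in any comparison; limma voom with quality weights called Dgat2 higher in MCAO (adjusted p = 0.0120) and lower in hypidone than in MCAO (0.0030). Dgat1 was at 10.3, 8.96 and 14.0 CPM in control 4, 5 and 6, at 9.84, 11.5 and 13.2 CPM in MCAO 4, 5 and 6, and at 12.4, 11.5 and 12.2 CPM in hypidone 2, 7 and 8. Dgat2 was at 43.9, 84.8 and 45.7 CPM in control 4, 5 and 6, at 85.9, 44.6 and 73.6 CPM in MCAO 4, 5 and 6, and at 52.8, 43.1 and 37.6 CPM in hypidone 2, 7 and 8. For both genes the groups overlapped, and for Dgat2 control 5 was as high as the 2 upper MCAO libraries while MCAO 5 was as low as the other 2 controls. The log2 fold changes in MCAO were 0.05 ± 0.20 for Dgat1 (edgeR adjusted p = 0.872) and 0.23 ± 0.31 for Dgat2 (0.624). In hypidone against MCAO they were 0.07 ± 0.20 (0.846) and -0.61 ± 0.31 (0.188).

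Hypidone against MCAO shares the MCAO libraries with the comparison above, so the 2 are not independent. In it 0 of the 10 genes were called higher and 4 lower: Pnpla2, Lipe, Plin4 and Plin5. It was 2 lower without control 4, control 6, MCAO 6, or any 1 of the hypidone libraries. Among all tested genes 8.23% were called higher and 8.28% lower. The groups did not overlap for 4 of the 10, against 39.9% of all tested genes, and the median log2 fold change was -0.70 against -0.04 for all. Nothing is read from this count or these shares either, as this comparison also led to the list.

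The log2 fold changes were -2.28 ± 0.13 for Pnpla2 and -3.96 ± 0.55 for Plin4, as descriptions. Their sizes are close to those in MCAO over control, 2.32 ± 0.13 and 4.07 ± 0.56, as hypidone and control libraries overlapped for both genes. Per library, hypidone 7 had the lowest Plin4 of all 9, at 16 counts, and one of the highest Pnpla2 values outside MCAO.

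**Figure D4:**
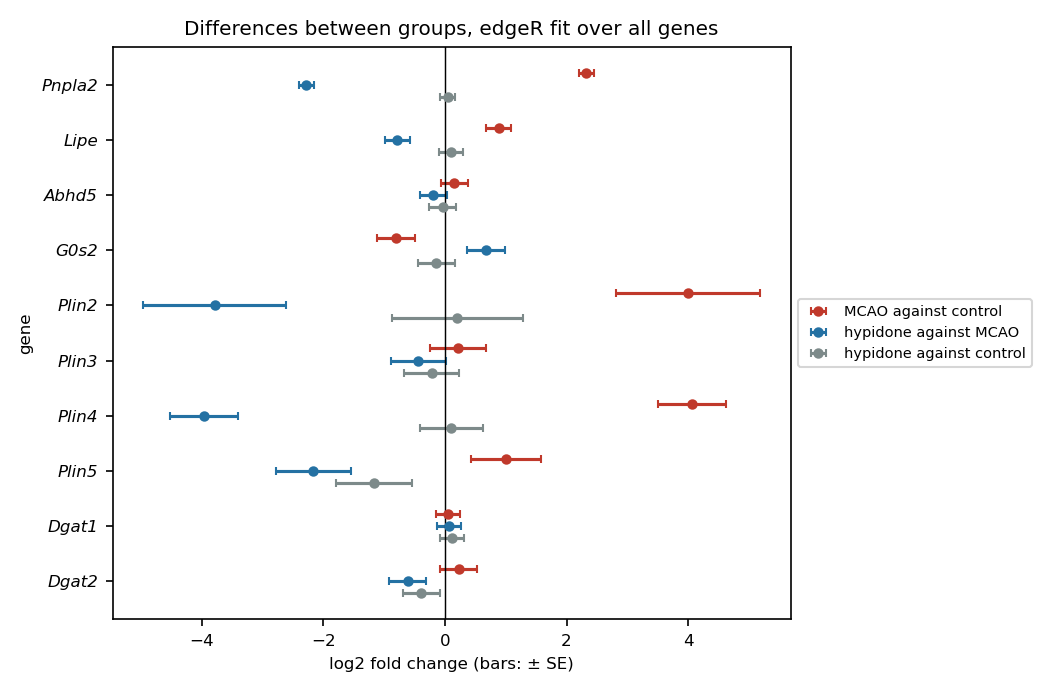
Log2 fold change of each of the 10 genes (points) with its SE (bars) in MCAO against control, hypidone against MCAO and hypidone against control, from 1 fit over all 9 libraries. Pnpla2 lies at 2.32 and -2.28 with short bars, Plin2 at 3.99 and -3.79 with long ones, and in hypidone against control the points lie between -1.17 and 0.20.

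Against control, hypidone had 0 of the 10 genes called in either direction, and the groups overlapped for all 10. Over all tested genes 0% were called higher, 0% lower, and 6.57% did not overlap. At an unadjusted p under 0.05, 131 of the 14756 genes passed in edgeR, while DESeq2 called 1 gene over all and limma voom 0. That is fewer than the share of 0.05 that would pass if no gene differed, so the edgeR test was conservative in this comparison. Having 0 genes called is therefore no evidence that hypidone equals control. The fold of hypidone over control for Pnpla2 was 1.03 with a 95% interval of 0.854 to 1.25, and for Lipe 1.07 with 0.779 to 1.47. For G0s2 it was 0.906 (0.560 to 1.47), for Plin4 1.08 (0.477 to 2.43), for Plin2 1.15 (0.213 to 6.23) and for Plin5 0.446 (0.168 to 1.18). The Pnpla2 interval is the narrowest of these 6 and the Plin2 interval the widest, so a difference of several fold in Plin2 would not have been seen.

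Other genes of triglyceride metabolism were read from 8 lists, described by counts beside the background shares given above. Of the 12 other lipases and lipase regulators, 1 rose in MCAO and 1 fell, with a median log2 fold change of -0.05. Angptl4, a secreted inhibitor of lipoprotein lipase, was at 1.44 to 2.77 CPM in control and at 12.03, 62.5 and 21.9 CPM in MCAO 4, 5 and 6. It rose by 3.92 ± 0.58 on the log2 scale (edgeR adjusted p = 0.0053), and was at 2.45 to 3.10 CPM in hypidone. Abhd6, a monoacylglycerol lipase, fell by 0.61 ± 0.10 (0.0065) and was higher in hypidone than in MCAO by 0.65 ± 0.10. In that comparison 2 of the 12 were higher, Abhd6 and the endothelial lipase gene Lipg, and 1 was lower. Neither Ddhd2, the main triglyceride hydrolase gene of neurons, at -0.25 ± 0.12 (edgeR adjusted p = 0.151), nor Hilpda, an inhibitor of the Pnpla2 enzyme, at 0.75 ± 0.34 (0.144), was called in MCAO, and both are named here after their values were seen.

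Droplet assembly genes went both ways. Of 14 tested, 3 rose and 2 fell in MCAO, with a median of 0.03. Cideb, a droplet fusion factor, fell by 1.71 ± 0.35 on the log2 scale (edgeR adjusted p = 0.0133), Acsl3, an acyl-CoA synthetase of nascent droplets, rose by 0.63 ± 0.15 (0.0210) and Hsd17b11, a droplet-bound dehydrogenase, rose by 0.50 ± 0.12 (0.0237). In hypidone against MCAO, 2 were higher and 3 lower, and these 3 genes had 1.64 ± 0.35, -0.69 ± 0.15 and -0.54 ± 0.12.

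Upstream of Dgat1 and Dgat2, synthesis of glycerolipids and sterol esters had 2 of 14 genes higher and 3 lower in MCAO, with a median of 0.07. Gpam, the mitochondrial acyltransferase that starts glycerolipid synthesis, was at 55.1 to 64.7 CPM in control and 106 to 144 CPM in MCAO and rose by 1.04 ± 0.14 (edgeR adjusted p = 0.0044). Agpat1, the enzyme of the next step, was at 131 to 148 CPM in control and 53.1 to 65.8 CPM in MCAO and fell by 1.22 ± 0.11 on the log2 scale (0.0016). Neither gene's groups overlapped; other genes of the list encode enzymes of the same steps, so this says nothing of a step as a whole. Tmem68, an acyltransferase of an alternative triglyceride route, fell by 0.99 ± 0.14 (0.0048). In hypidone against MCAO the list had 3 higher and 2 lower, with Agpat1 at 1.16 ± 0.11, Gpam at -0.93 ± 0.14 and Tmem68 at 0.86 ± 0.14.

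Fatty acid oxidation had 4 of 21 genes higher and 0 lower in MCAO, with a median of 0.34, against 0.01 for all tested genes. The MCAO libraries did not share this rise evenly. In MCAO 4, Hadha was at 51.5 CPM against 66.1 to 84.7 CPM in control, and Etfa at 21.9 CPM against 31.0 to 34.1 CPM. These 2 were named after their values were seen, and other genes of the list, such as Cpt1a, were above every control in MCAO 4. The carnitine transferases Cpt1a, at 28.2 to 33.8 CPM in control and 37.2, 104 and 52.7 CPM in MCAO 4, 5 and 6, and Cpt1b rose by 1.06 ± 0.32 (edgeR adjusted p = 0.0449) and 2.10 ± 0.60 (0.0381). Both were highest in MCAO 5, the library with the most microglia and macrophage marker RNA, whose part in the result was not tested. Hypidone against MCAO had 0 higher and 2 lower, among them Echs1, an enzyme of the oxidation spiral, at -0.62 ± 0.13 (edgeR adjusted p = 0.0160), and a median of -0.43.

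Among 12 tested genes of the PPAR receptors, which sense fatty acids, their coactivators and known targets, 3 rose and 0 fell in MCAO, with a median of 0.33. Pdk4, a kinase that restrains glucose oxidation, was at 9.74 to 13.1 CPM in control and at 22.5, 51.1 and 42.4 CPM in MCAO 4, 5 and 6, a rise of 1.75 ± 0.29 (edgeR adjusted p = 0.0068). Rxra, the partner receptor, rose by 0.89 ± 0.20 (0.0173) and the mitochondrial carrier gene Ucp2 by 2.68 ± 0.69 (0.0275). Ucp2 was at 25.7 to 33.3 CPM in control and at 38.0, 396 and 109 CPM in MCAO 4, 5 and 6. MCAO 5, which had the most microglia and macrophage marker RNA, was thus far above the other MCAO libraries. Ppara at 0.20 ± 0.33 and Pparg at 0.08 ± 0.53, also named after their values were seen, were not called. With hypidone against MCAO 1 of the 12 was higher and 4 lower, with Pdk4 at -1.70 ± 0.29 (0.0089), Rxra at -0.87 ± 0.20 (0.0214) and the acyl-CoA thioesterase gene Acot1 at -1.89 ± 0.43 (0.0217).

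The 3 remaining lists were mixed. Fatty acid synthesis had 2 of 15 higher and 2 lower in MCAO (median 0.02): the elongase gene Elovl6 fell by 1.28 ± 0.12 on the log2 scale (edgeR adjusted p = 0.0016), with 54.4 to 66.5 CPM in control and 23.3 to 24.9 CPM in MCAO, and the transcription factor gene Srebf1 rose by 1.29 ± 0.20 (0.0060). Fatty acid uptake and activation had 1 of 14 higher and 2 lower (median 0.09), among them the acyl-CoA synthetase gene Acsl4, which fell by 0.60 ± 0.12 on the log2 scale (0.0105). Hormone control of lipolysis had 1 of 21 higher and 3 lower (median 0.07). Insr, the insulin receptor gene, rose by 0.49 ± 0.12 (edgeR adjusted p = 0.0260). Prkar2b, a regulatory subunit of protein kinase A, fell by 1.14 ± 0.29 on the log2 scale (0.0265). It was at 83.5, 35.8 and 79.2 CPM in control 4, 5 and 6 and at 23.4 to 34.7 CPM in MCAO. Control 5, which stood apart, was thus close to the MCAO libraries. In hypidone against MCAO these lists had, in the same order, 1 higher and 2 lower, 1 and 1, and 3 and 1. In hypidone against control none of the 8 lists had a called gene in edgeR.

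**Figure D5:**
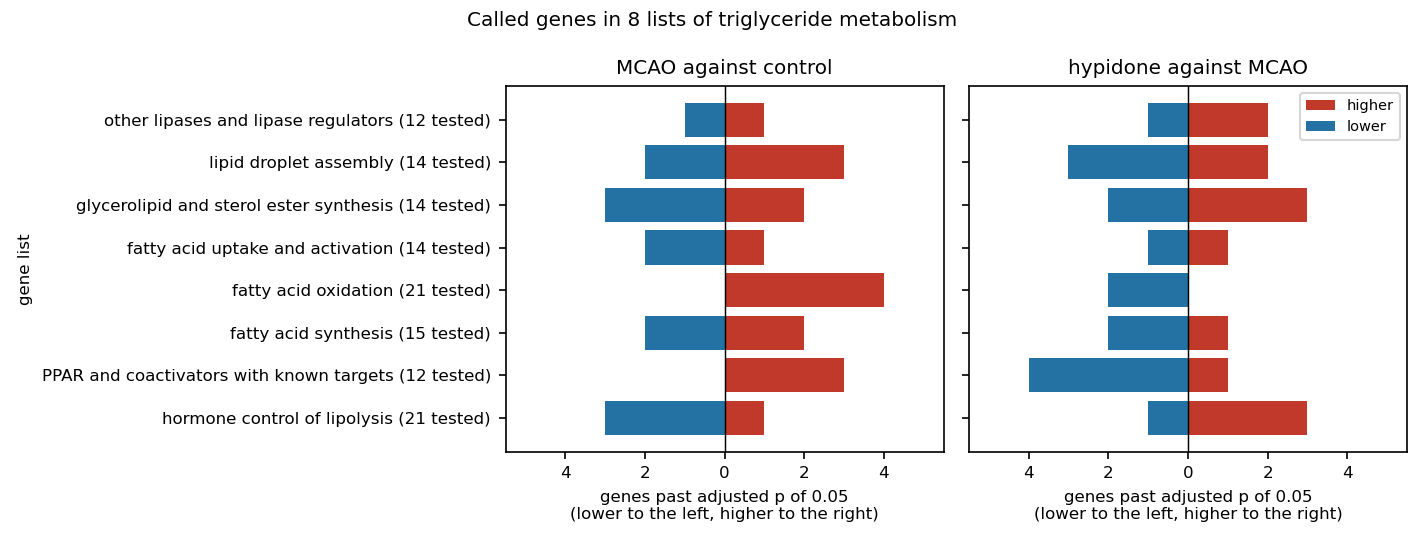
Number of called genes (edgeR adjusted p under 0.05), higher to the right and lower to the left of 0, in 8 lists of triglyceride metabolism for MCAO against control (left panel) and hypidone against MCAO (right panel). Fatty acid oxidation has 4 higher and 0 lower in MCAO, and most other lists have genes on both sides.

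The genes with levels most like those of Pnpla2 over the 9 libraries, by mean absolute difference of centred log2 CPM, were Phyhd1 at 0.17, Trp53inp1 at 0.19, Nrros at 0.19, Rnf125 at 0.20 and Zfp36 at 0.21. For Plin4 they were Maff at 0.57, Tlr7 at 0.63, Tlr2 at 0.66, Apod at 0.70 and Angptl4 at 0.72, so no gene followed it as closely. Tlr2 and Tlr7 encode toll-like receptors of microglia and macrophages, but which cells hold the Plin4 message was not tested. All 10 genes were picked by this likeness over the 9 libraries, so it is a description. Between members of the list the distance from Pnpla2 to Plin4 was 0.90 on the same scale and that from Pnpla2 to Lipe 0.66.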

How the data were processed

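RNA of 9 mouse brain samples was sequenced after TRIzol extraction and VAHTS Universal V6 library preparation, per the labels' protocols. The authors deposited counts per gene and FPKM (length-normalised), and a table with their own fold values and q-values (p-values adjusted by the authors). The submitters' processing notes name mm10 and DESeq2; the aligner, counter and strandedness are not stated in them. From the counts, edgeR 4.0.16 (R 4.3.3) was run: filterByExpr, TMM scaling, 1 quasi-likelihood fit over all 9 libraries, two-sided tests, Benjamini-Hochberg adjustment over 14756 genes, threshold 0.05, 6 residual degrees of freedom. CPM values are TMM-scaled. The fit was tested on simulated data with 100 genes changed 2-fold and 100 changed 4-fold. Depending on the comparison it recovered 33 to 35 of the former and 72 to 77 of the latter. A gene that was not called may therefore still differ. Alternatives were DESeq2 1.42.0 and limma 3.58.1 (voom with quality weights; log2 of FPKM plus 1 or 0.1), other scalings and filters, 2 groups only, a replicate block and leaving out each library. Genes named are the 10 members, up to 3 called genes with the lowest p per list and comparison, and the 5 nearest profiles of Pnpla2 and Plin4 (average log2 CPM of at least 1); other genes were named after their values were seen. A gene that this rule would name is not reported here. Members and lists were chosen with earlier results of these data known. No 2 libraries agreed within sampling noise (lowest chi-square per degree of freedom 9.08).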

Additional observations from a re-analysis of the deposited data

How the results depend on the processing

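In MCAO against control, leaving out 1 library gave log2 fold changes of 2.24 to 2.42 for Pnpla2 and 3.79 to 4.38 for Plin4, as descriptions, since this comparison led to their choice. The labels do not say whether libraries that share a number in control and MCAO were paired, and they were treated as unpaired. Their deviations correlated at 0.118, 0.123 and -0.042, and control 6 correlated best with MCAO 4, at 0.124. Correlations over so few libraries cannot decide whether a pairing exists. With that number as a replicate block, 0 of the 10 genes and 0 of all genes were called, and the log2 fold changes were 2.31 for Pnpla2 and 4.12 for Plin4. In MCAO against control the count of called members, 4, became 2 with only the 2 groups compared and 2 to 4 on leaving out 1 library. The count over all genes, 3015, became 7428 with voom, 682 with only 2 groups and 1093 (without control 6) to 4275 (without MCAO 4). In hypidone against MCAO the 4 members became 7 with voom, 2 with only 2 groups and 2 to 5 on leaving out 1 library. All genes there, 2437, became 4011 with DESeq2, 7631 with voom and 548 (without hypidone 8) to 3875 (without MCAO 4). In hypidone against control only DESeq2 called a gene (1). The cause of these moves was not tested.

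Directions turned for genes that were not called. With voom, Abhd5 became -0.10 in MCAO against control and 0.065 in hypidone against MCAO, Dgat1 became -0.11 in hypidone against MCAO, and in hypidone against control Plin3 became 0.022, Plin4 -0.44 and Dgat1 -0.031. Plin4 there was -0.0084 on log2 of FPKM plus 0.1. On leaving out 1 library, MCAO against control ran from -0.16 to 0.31 for Abhd5, -0.52 to 0.56 for Plin3 and -0.083 to 0.25 for Dgat1. Hypidone against MCAO ran from -0.35 to 0.12 for Abhd5, -0.76 to 0.30 for Plin3 and -0.031 to 0.17 for Dgat1. Hypidone against control ran from -0.095 to 0.054 for Abhd5, -0.40 to 0.12 for Plin3, -0.33 to 0.55 for Plin4 and -0.014 to 0.32 for Dgat1. Under a filter of CPM of at least 1 in 3 libraries Plin5 was not tested. Plin5, with 2 to 33 counts a library, is the member whose depth limits a difference most.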
